A study of Homo sapiens with 2 samples.

Results

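Of 14943 ATAC-seq peaks that lay at transcription start sites (TSSs) in control 293T cells, 2298 (15.4%, 95% Wilson interval 14.8 to 15.97) had no counterpart in cells treated with methylglyoxal (MGO), and these are described here as lost TSS peaks. They were selected on measured values: a control peak on chromosomes 1 to 22, X or Y counted as a TSS peak when a GENCODE 44 transcript start of a protein-coding or long non-coding RNA (lncRNA) gene was covered by it or no more than 1000 bp from it, and as lost when no peak of the MGO list overlapped it by even 1 bp. The other 12645 TSS peaks are called retained. ATAC-seq uses the Tn5 transposase to cut accessible DNA. 293T cells derive from human embryonic kidney and express the large T antigen of SV40, and MGO is a reactive by-product of glycolysis that glycates proteins and DNA. For each condition 1 library of 50000 cells was analysed. The treated cells were grown for 12 h with MGO at 0.5 mM in fresh medium. For the control cells, 1 label gives PBS as the treatment and another describes fresh medium with nothing added.

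A TSS is the position where RNA polymerase II begins a transcript, and the promoter around it is kept free of nucleosomes when it is in use. Most housekeeping promoters lie in CpG islands, stretches rich in G, C and CpG dinucleotides that tend to be open in most cell types, whereas promoters with few CpGs are more often open in particular tissues. Many genes also have alternative promoters, often inside the gene, from which shorter or differently spliced transcripts start.

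Sequences at some lost peaks show how far they differ in CpG content. GRCh38 promoter windows from RefSeq, of 250 bases before and 50 from the start, are shown first, 5′ to 3′ along the gene and with CpG dinucleotides in capitals. They come from 4 of the 10 protein-coding genes with the strongest lost peak at the main start, of which 7 had a window in the RefSeq table. G0S2 encodes an inhibitor of adipose triglyceride lipase, its window at chr1:209675162-209675461 is on the plus strand, and it has 24 CpGs. CDK7 encodes the kinase of the general transcription factor TFIIH, and its window at chr5:69234636-69234935 on the plus strand has 18. KCNMB2 encodes an auxiliary subunit of calcium-activated potassium channels, and its window at chr3:178536186-178536485 on the plus strand has 5, and 209 of its 300 bases lie in the lost peak. GPX8 encodes a peroxidase of the endoplasmic reticulum, and its window at chr5:55159921-55160220 on the plus strand has 4. PARK7, which encodes the deglycase DJ-1, had a retained peak at its main start and is shown for contrast, chosen after its values were seen, with 31 CpGs at chr1:7961461-7961760 on the plus strand.
G0S2: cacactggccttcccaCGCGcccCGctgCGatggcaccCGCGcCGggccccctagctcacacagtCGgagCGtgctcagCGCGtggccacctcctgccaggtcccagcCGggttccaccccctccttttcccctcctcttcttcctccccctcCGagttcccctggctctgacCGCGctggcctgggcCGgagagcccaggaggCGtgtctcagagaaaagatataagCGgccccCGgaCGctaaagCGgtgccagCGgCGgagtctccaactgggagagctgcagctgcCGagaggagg
CDK7: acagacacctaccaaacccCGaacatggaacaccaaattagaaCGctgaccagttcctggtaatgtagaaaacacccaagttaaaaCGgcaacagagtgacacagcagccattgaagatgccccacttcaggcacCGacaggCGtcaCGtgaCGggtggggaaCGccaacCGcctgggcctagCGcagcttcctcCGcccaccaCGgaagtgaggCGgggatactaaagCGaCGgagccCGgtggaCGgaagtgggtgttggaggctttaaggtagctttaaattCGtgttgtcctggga
KCNMB2: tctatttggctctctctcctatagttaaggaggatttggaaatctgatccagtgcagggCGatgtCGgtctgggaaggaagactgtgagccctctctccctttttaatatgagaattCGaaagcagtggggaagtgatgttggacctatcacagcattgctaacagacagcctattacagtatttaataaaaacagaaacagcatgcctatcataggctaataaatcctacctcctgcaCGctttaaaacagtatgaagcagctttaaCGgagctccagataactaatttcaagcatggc
GPX8: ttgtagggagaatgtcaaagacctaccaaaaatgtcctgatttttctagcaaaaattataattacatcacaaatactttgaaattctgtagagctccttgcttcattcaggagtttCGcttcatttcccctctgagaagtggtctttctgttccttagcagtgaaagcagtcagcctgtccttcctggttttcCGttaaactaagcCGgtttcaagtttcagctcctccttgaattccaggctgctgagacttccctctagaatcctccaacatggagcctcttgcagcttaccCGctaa
PARK7: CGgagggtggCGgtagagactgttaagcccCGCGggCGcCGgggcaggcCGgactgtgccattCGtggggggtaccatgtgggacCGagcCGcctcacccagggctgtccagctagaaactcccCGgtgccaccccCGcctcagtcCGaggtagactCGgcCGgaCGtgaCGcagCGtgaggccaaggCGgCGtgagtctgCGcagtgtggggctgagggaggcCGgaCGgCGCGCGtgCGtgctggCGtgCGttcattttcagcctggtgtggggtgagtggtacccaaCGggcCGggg

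The middle 200 bases of 4 further lost peaks, read from GRCh38 on the strand of the gene, are shown because these were among the strongest lost peaks at lncRNA or alternative starts. GRM8, a metabotropic glutamate receptor gene, has 2 CpGs at chr7:127107780-127107979 on the minus strand. SCN2A, which encodes a neuronal voltage-gated sodium channel, has 3 at chr2:165293751-165293950 on the plus strand. LINC00632, the lncRNA gene from which the circular RNA CDR1as is made, has 0 at chrX:140709518-140709717 on the plus strand. The next strongest lncRNA peaks, not printed, have more. ENSG00000229227, ENSG00000254648, ENSG00000257239 and ENSG00000280018 have 16, 21, 11 and 14 in their middle 200 bases. INAVA, a gene of innate immune signalling, has 16 at chr1:200891126-200891325 on the plus strand.
GRM8: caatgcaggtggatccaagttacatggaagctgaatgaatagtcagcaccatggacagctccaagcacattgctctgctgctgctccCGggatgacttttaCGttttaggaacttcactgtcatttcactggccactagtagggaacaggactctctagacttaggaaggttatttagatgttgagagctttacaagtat
SCN2A: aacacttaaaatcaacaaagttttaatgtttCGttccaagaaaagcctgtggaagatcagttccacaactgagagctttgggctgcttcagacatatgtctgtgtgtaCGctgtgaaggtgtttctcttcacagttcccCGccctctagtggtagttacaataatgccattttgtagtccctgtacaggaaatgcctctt
LINC00632: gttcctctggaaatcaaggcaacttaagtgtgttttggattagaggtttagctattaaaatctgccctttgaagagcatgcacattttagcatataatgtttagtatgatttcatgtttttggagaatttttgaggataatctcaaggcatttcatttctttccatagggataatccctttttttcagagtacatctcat
INAVA: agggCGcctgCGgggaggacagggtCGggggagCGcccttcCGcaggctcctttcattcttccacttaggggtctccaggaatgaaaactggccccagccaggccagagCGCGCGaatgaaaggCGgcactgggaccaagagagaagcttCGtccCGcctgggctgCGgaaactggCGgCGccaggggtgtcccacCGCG

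For each peak the position, the enrichment over background as a fold value, the −log10 p and the −log10 q are known, but no read counts, so the depth behind a peak is unknown and a lost peak has a value in the control library only. On the chromosomes used there were 35515 control and 22379 MGO peaks, and both lists run up to a q value of 0.099. Of the 20572 control peaks away from TSSs, 15582 were also without an MGO peak. With 1 library per condition no difference between conditions could be tested, intervals cover counting error only, and a peak below the calling limit of the MGO list counts as lost whatever its remaining signal. Accessibility in fewer cells and less accessibility per cell cannot be told apart. The 293T markers VIM, NEFM, NEFL, INA, PAX2 and GATA3 had a peak at the main start in both lists, NEFH and LHX1 had none, and neither list had a TSS peak at the blood, liver and endothelial markers PTPRC, CD3E, SPI1, ALB, APOA1, PECAM1 and CDH5.

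The strongest lost peaks lay at genes of varied function. At main starts of protein-coding genes, meaning the start of the transcript that Ensembl marks as canonical, the peak of highest −log10 p was at GC, which encodes the vitamin D-binding protein. It spanned chr4:71784025-71785238, was 1214 bp wide, and had a fold enrichment of 4.89 and a −log10 p of 11.9 in the control library. The G0S2 peak (chr1:209674857-209676188) covered the window printed above, with a fold enrichment of 4.36 and a −log10 p of 11.3. At BTN3A1, a butyrophilin gene recognised by gamma-delta T cells, the peak was narrow, at 283 bp (chr6:26402207-26402489), with a −log10 p of 11.2. RGS4, a regulator of G-protein signalling, had a 577 bp peak (chr1:163069309-163069885) with a −log10 p of 10.9. The nearest MGO peak was 238037 bp away at GC and 251518 bp away at RGS4, so neither neighbourhood had an MGO peak.

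The next peaks of this rank had −log10 p values between 8.82 and 9.90. They lay at the zinc finger transcription factor gene HIVEP3 (9.90, chr1:41918073-41918944), the fatty acid-binding protein gene FABP3 (9.57, chr1:31373097-31374063), KCNMB2 (9.40, chr3:178536277-178537305), CDK7 (9.32, chr5:69234300-69235174), GPX8 (8.88, chr5:55159849-55161032) and ENSG00000276302 (8.82, chr6:28267020-28267363), which shares its peak with ZSCAN26. HIVEP3 differed from the others in having an MGO peak 1022 bp away and at another of its starts. The other 9 genes had no MGO peak within 1000 bp of any of their starts. GPX8 (35.3% GC) and GC (36.8% GC) were the poorest of the 10 peaks in G and C, and ENSG00000276302 (65.1%) and G0S2 (62.7%) the richest.

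Among lost peaks at main starts of lncRNA genes alone, LINC00632 ranked first with a −log10 p of 12.6 and a width of 372 bp (chrX:140709432-140709803). An MGO peak lay 3093 bp away, at another start of the same gene. SYT15-AS1 (ENSG00000229227 shares the peak, chr10:46597687-46598294) followed with 12.4, and ENSG00000254648 (chr11:134037124-134037649) with 10.7, in a peak that is also at an alternative start of LINC02731. ENSG00000257239 (chr12:41932564-41932956) and ENSG00000280018 (chr21:6997170-6997850) had values of 10.6 and 10.5. Their nearest MGO peaks were 91065 and 99045 bp away.

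The lost peak of highest −log10 p of all, 14.1 with a fold enrichment of 5.45, lay 986 bp upstream of an alternative start of GRM8 (chr7:127107638-127108121), and the main start of GRM8 had an MGO peak. The same held for TBL1X, which encodes a subunit of the NCoR and SMRT corepressors (11.5, chrX:9542273-9542848), and for VAV3, a guanine nucleotide exchange factor (10.8, chr1:107688104-107689415). SCN2A (10.5, chr2:165293450-165294251) and INAVA (10.5, chr1:200890917-200891535) had no MGO peak at any start.

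**Figure D1:**
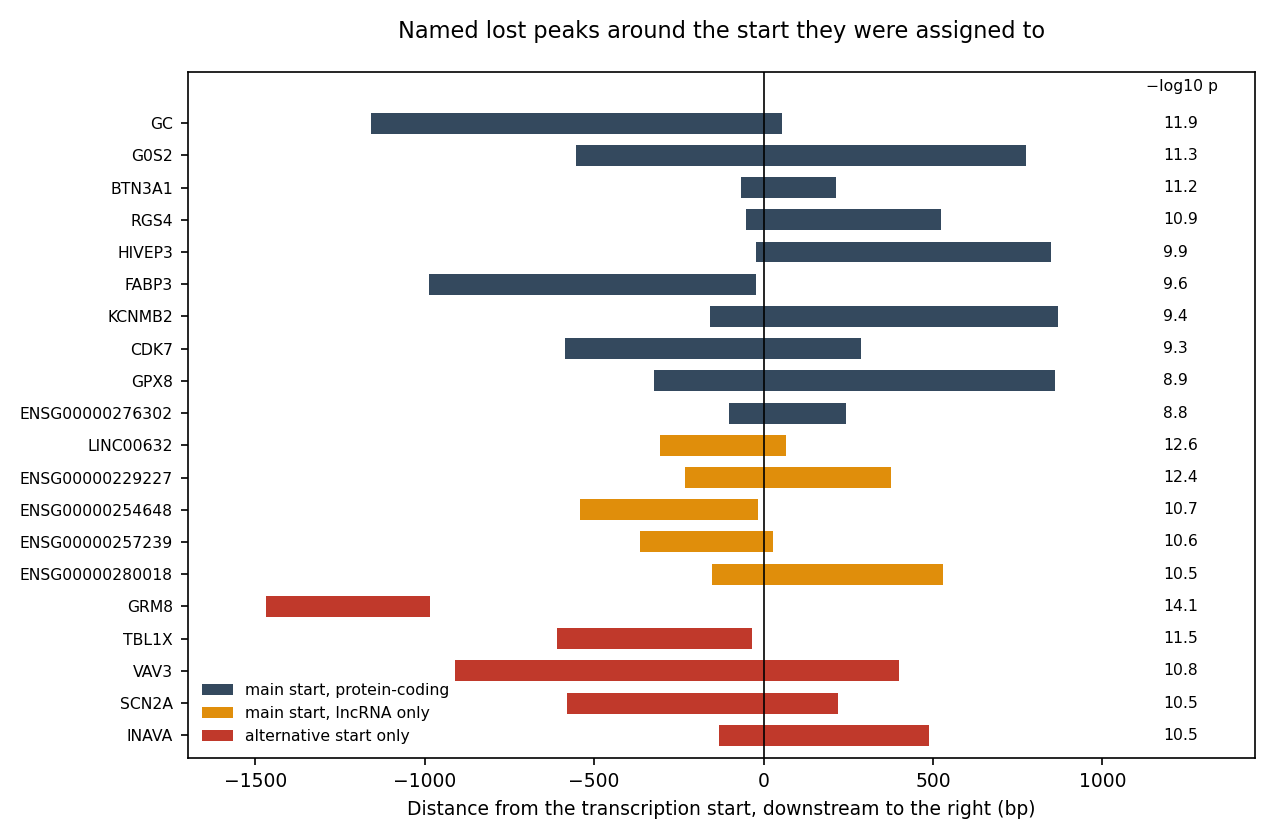
Extent of the 20 lost peaks named above around the start to which each was assigned, in bp with the direction of transcription to the right; colours give the kind of start and the right column the control −log10 p. Most of the peaks span the start (the line at 0), while the GRM8 peak lies 986 bp upstream.

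The widest lost peak, of 3187 bp, covered the main start of CCND2, the gene of cyclin D2 (chr12:4272103-4275289). It was wide but weak, with a fold enrichment of 2.42 and a −log10 p of 4.78. RASSF9 (2593 bp, chr12:85833836-85836428), FAM182B (2478 bp, chr20:25861232-25863709), EXTL3 (2412 bp) and ENSG00000292285 (2412 bp, chr13:91358577-91360988) came next. Of these 5, EXTL3, which encodes a heparan sulfate glycosyltransferase, was the one whose main start had an MGO peak.

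Lost peaks were narrower and weaker than retained ones. Their median width was 549.5 bp (95% interval 535 to 564, range 278 to 3187), beside 1113 bp (1104 to 1122) for retained peaks. The median fold enrichment was 2.89 against 3.63, and the median −log10 p 4.27 (4.23 to 4.33) against 9.13 (9.04 to 9.23). Lost peaks away from TSSs were narrow and weak too, with medians of 495 bp, 2.88 and 3.99. A −log10 q of at least 2, the q of 0.01 given in the methods, was reached by 1177 lost peaks (51.2%) and by 95.4% of retained ones. At a −log10 q of at least 5 stood 93 lost peaks (4.05%) and 64.6% of retained ones. Within the lost peaks, those at main starts of protein-coding genes were the widest (median 583.5 bp) and strongest (4.54), followed by those at main starts of lncRNA genes alone (542 bp, 4.22) and at alternative starts (527 bp, 4.12).

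**Figure D2:**
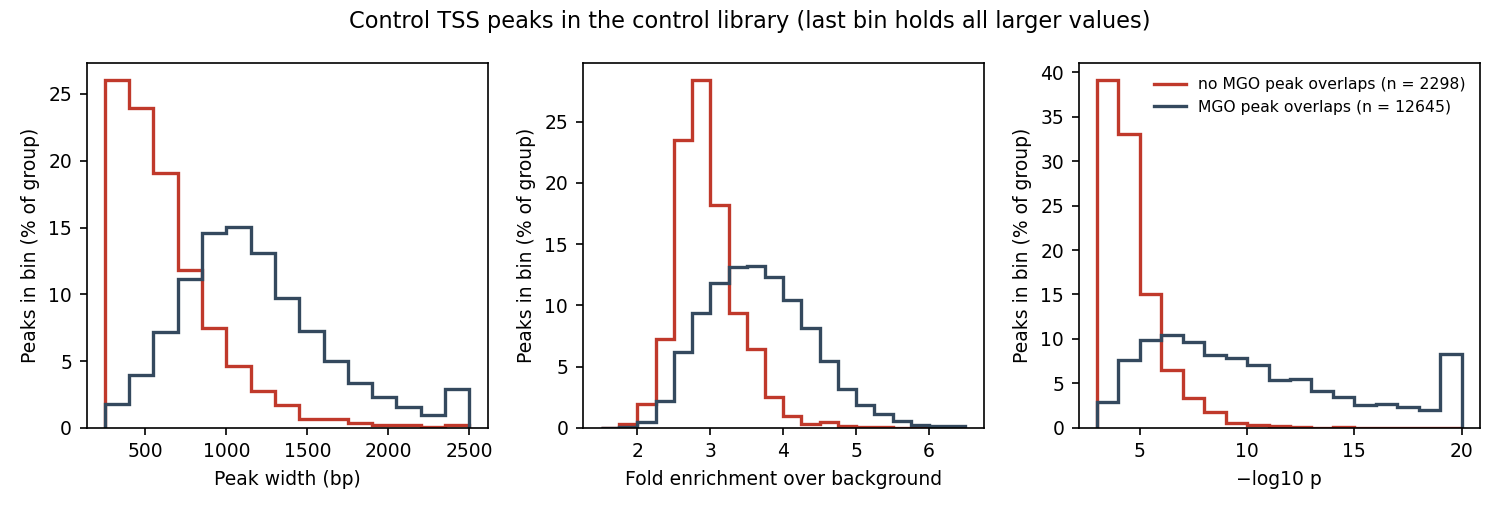
Width (bp), fold enrichment over background and −log10 p of the 2298 lost (red) and 12645 retained (blue) TSS peaks in the control library, as the percentage of each group per bin; the last bin holds all larger values. Medians were 549.5 and 1113 bp, 2.89 and 3.63, and 4.27 and 9.13.

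Loss fell steadily with strength. When all control TSS peaks were put in 10 groups of equal size by −log10 p, 68.0% of the weakest group (3.10 to 4.13) were lost, 42.9% of the next, 21.8% of the third, 10.98% of the fourth and 6.09% of the fifth. Of the 1494 peaks in the ninth group 1 was lost, that of GRM8, and in the strongest group 0 of 1495 were lost, for which the Wilson upper limit is 0.256%. The kind of start separated peaks of like strength. In the weakest group 82.9% (79.7 to 85.7) of peaks at alternative starts and 79.5% (74.6 to 83.7) of peaks at main starts of lncRNA genes were lost, against 46.6% (42.6 to 50.6) at main starts of protein-coding genes.

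**Figure D3:**
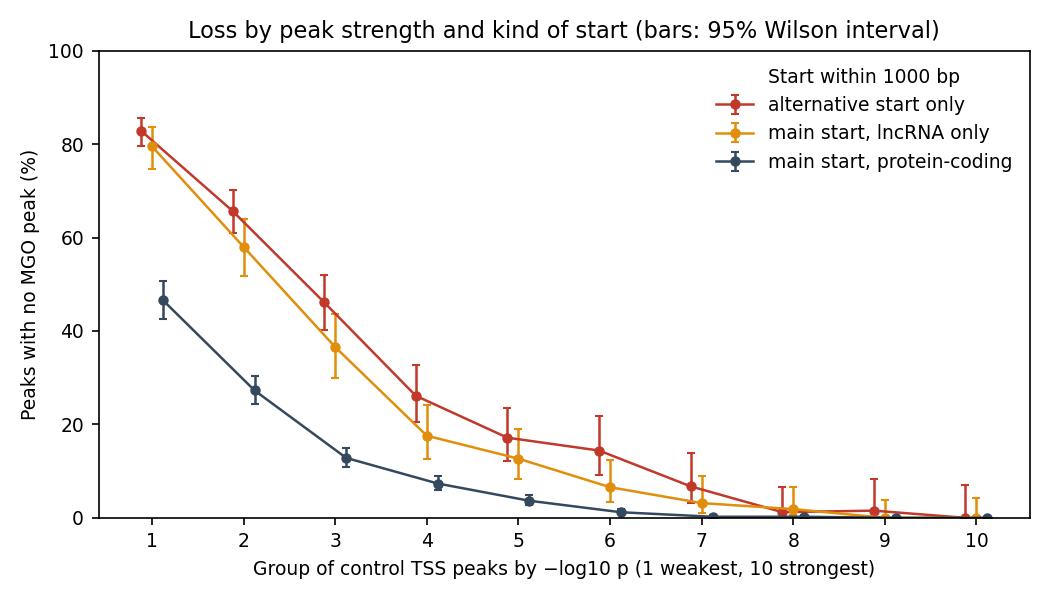
Percentage of control TSS peaks with no overlapping MGO peak in 10 groups of equal size by control −log10 p (1 weakest, 10 strongest), by kind of start; bars are 95% Wilson intervals. In the weakest group the share was 82.9% for alternative starts, 79.5% for main starts of lncRNA genes and 46.6% for main starts of protein-coding genes.

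Alternative starts made up a far larger part of the lost than of the retained peaks. A main start lay within 1000 bp of 1291 lost peaks (56.2%, 54.1 to 58.2) and of 91.6% of retained peaks, so that lost minus retained was −35.5 percentage points (−37.5 to −33.4, by Newcombe's method). At equal −log10 p, with Mantel-Haenszel weights over the 10 groups, the difference was −25.9 points (−28.4 to −23.3), and at equal −log10 p and width −23.9 (−26.6 to −21.3). By kind, 780 lost peaks (33.9%) were at a main start of a protein-coding gene, 511 (22.2%) at main starts of lncRNA genes alone and 1007 (43.8%) at alternative starts alone. Among retained peaks these shares were 83.3%, 8.29% and 8.37%. Counted the other way, 48.8% (46.6 to 50.9) of the 2065 control TSS peaks at alternative starts were lost, 32.8% (30.5 to 35.1) of the 1559 at lncRNA main starts and 6.89% (6.44 to 7.37) of the 11319 at protein-coding main starts, beside 15.4% for all.

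Most of the lost alternative starts were inside their genes. Of the 1007, 863 (85.7%, 83.4 to 87.7) lay downstream of the main start, at a median of 37414 bp, and 144 lay upstream, at a median of 15630.5 bp. The gene's main start had a control peak in 630 (62.6%, 59.5 to 65.5) and an MGO peak in 611 (60.7%, 57.6 to 63.6). These shares were not computed for retained peaks at alternative starts. The peak's middle lay in an intron in 636 (63.2%) and in a first exon in 242 (24.0%). Among retained peaks at alternative starts these shares were 53.2% and 33.0%. A start of a transcript typed as protein-coding was within reach of 39.9% of them, compared with 63.4% of retained peaks at alternative starts. EPB41L2, which encodes a membrane cytoskeleton linker, lost 4 of its 5 TSS peaks and kept an MGO peak at its main start. CADM1, a cell adhesion gene, lost 3 of 4 and SYNE1, a gene of the nuclear envelope, 3 of 7, each with an MGO peak at the main start. The lncRNA gene CASC15 lost 4 of 5.

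Lost peaks also lay beside a start, and not over it, more often than retained peaks did. A start lay under 58.1% of lost and 95.3% of retained peaks, while 472 lost peaks (20.5%) lay wholly upstream and 490 (21.3%) wholly downstream of the nearest start. The difference in peaks over a start was −37.1 points (−39.2 to −35.1), and −19.2 (−21.8 to −16.7) at equal −log10 p and width. Of all control TSS peaks that flanked a start, 61.5% upstream and 61.9% downstream were lost, against 9.98% of those over one. Starts on both strands, counted whether divergent or not, were within 1000 bp of 9.27% of lost and 33.6% of retained peaks. This difference was −24.4 points (−25.8 to −22.9), and −12.7 (−14.8 to −10.6) at equal −log10 p and width. A single start position was within reach of 47.0% of lost and 13.4% of retained peaks, with medians of 2 and 5 positions per peak. A wider peak can reach more starts, and these counts of positions were not adjusted for width or strength.

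For most lost peaks no MGO peak was near. The nearest was at a median of 29210 bp, within 10000 bp for 500 (21.8%) and more than 100000 bp away for 367 (15.97%). An MGO peak lay within 1000 bp of the same start for 52 lost peaks (2.26%, 1.73 to 2.96). The closest approaches were 4 bp at ENSG00000267366, 21 bp at the ribosomal protein gene RPL23A and 22 bp at RNPEPL1. On the other side of the overlap limit, the retained peaks of LINC02303, LINC02802 and SH3PXD2A shared 1, 2 and 9 bp with an MGO peak. At the distance limit, the lost peaks of MIR4435-2HG, LINC02147 and TCF4 lay 999, 997 and 997 bp from their starts, and those of ENSG00000283413, LINC00607 and FGF14, at 1001, 1002 and 1003 bp, were left out.

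The DNA under lost peaks was poorer in CpG. A GC content of at least 50% with an observed over expected CpG ratio of at least 0.6, the usual criteria of a CpG island, was met by 727 lost peaks (31.6%, 29.8 to 33.6) and by 87.7% (87.1 to 88.3) of retained peaks. The difference was −56.1 points (−58.0 to −54.1), −45.1 (−47.7 to −42.5) at equal −log10 p and −44.6 (−47.3 to −41.9) at equal −log10 p and width. The median GC content was 55.7% against 64.6% and the median CpG ratio 0.405 against 0.783. In these terms the lost TSS peaks stood between the retained TSS peaks and the lost peaks away from TSSs, of which 3.23% met the criteria at a median GC content of 43.6%.

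The CpG contrast was found for each kind of start. At main starts of protein-coding genes, 63.2% of lost and 92.5% of retained peaks met the island criteria, at main starts of lncRNA genes 19.96% and 68.1%, and at alternative starts 13.1% and 59.9%. Put as loss, 67.4% (64.8 to 69.9) of peaks at alternative starts outside islands were lost and 17.2% (14.7 to 20.1) of those in islands. For lncRNA main starts the values were 55.05% and 12.5%, and for protein-coding main starts 26.5% (24.0 to 29.2) and 4.82% (4.42 to 5.25). Among the strongest peaks named at protein-coding main starts, G0S2, HIVEP3, CDK7 and ENSG00000276302 met the criteria. GC, BTN3A1, RGS4, FABP3, KCNMB2 and GPX8 did not. At lncRNA main starts ENSG00000229227, ENSG00000254648 and ENSG00000257239 met them, and LINC00632 and ENSG00000280018 did not. At alternative starts INAVA met them, and GRM8, TBL1X, VAV3 and SCN2A did not. Of the widest peaks, CCND2 and FAM182B met them, and RASSF9, EXTL3 and ENSG00000292285 did not.

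**Figure D4:**
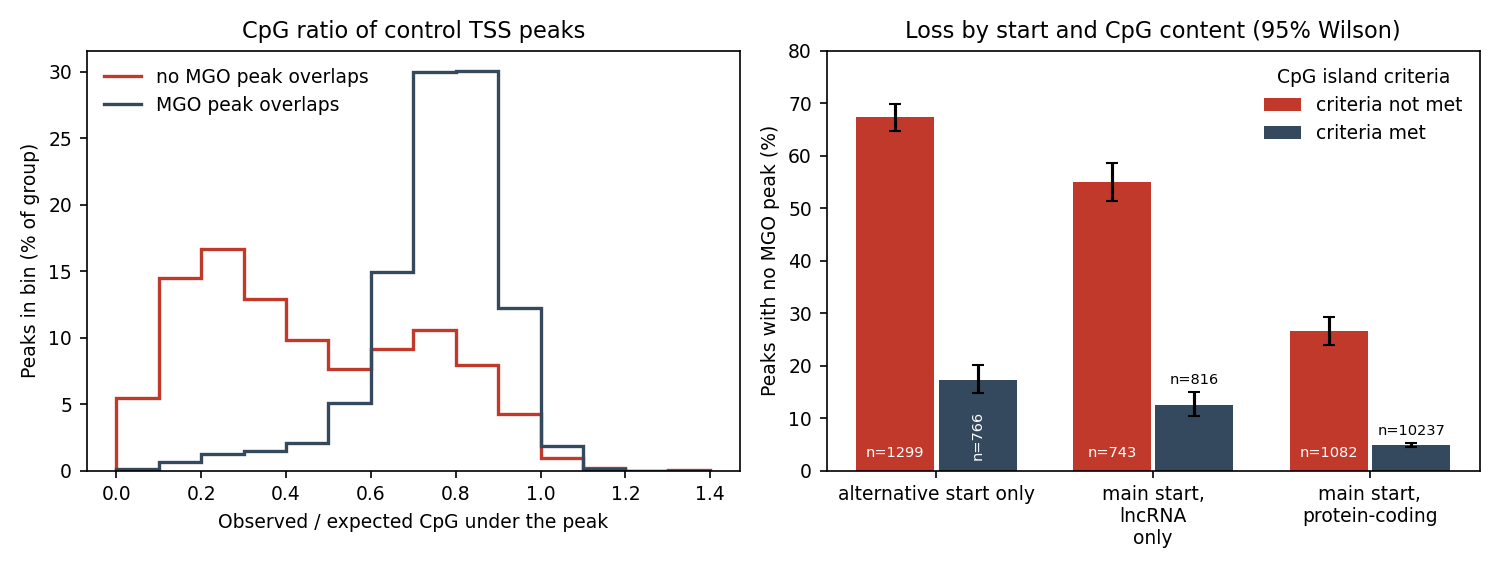
Left, observed over expected CpG ratio of lost (red) and retained (blue) TSS peaks as the percentage of each group per bin, with medians of 0.405 and 0.783. Right, percentage of control TSS peaks lost by kind of start and by whether the peak met the CpG island criteria, with 95% Wilson intervals and the number of peaks; it ran from 67.4% at alternative starts outside islands to 4.82% at protein-coding main starts in islands.

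Short promoter motifs were counted on both strands of the middle 300 bases of each peak, as matches of letters and not as bound sites. The GC box (GGGCGG), recognised by SP1-family factors, occurred in 33.6% of lost, 69.9% of retained and 64.4% of all control TSS peaks. The ETS motif (CCGGAAG) occurred in 4.96%, 12.8% and 11.6%, the NRF1 motif (GCGCATGC) in 1.26%, 3.12% and 2.84%, and the cAMP response element (TGACGTCA) in 0.740%, 1.84% and 1.67%. All these motifs contain CpG. The TATA box (TATAAA) was more frequent in lost peaks, with 12.8% against 3.31% of retained and 4.76% of all, a difference of 9.45 points (8.10 to 10.9) that was 8.26 (6.58 to 9.95) at equal −log10 p and width. Lost peaks away from TSSs held it in 24.5%. The letters TATAAA are A and T only, and GC content was not held equal. It was under 50% in 36.4% of lost and 4.74% of retained TSS peaks. The CCAAT box (CCAAT) occurred in 29.4%, 24.8% and 25.5%, and the E-box CACGTG in 5.35%, 6.65% and 6.45%.

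For the AP-1 motif (TGAGTCA) and the CTCF core (CCACNAGG, where N is any base) the contrast shrank when strength and width were held equal. AP-1 occurred in 4.22% of lost, 2.11% of retained and 2.44% of all control TSS peaks, but at equal −log10 p and width the difference was 0.388 points (−0.783 to 1.56). CTCF occurred in 7.75%, 4.93% and 5.36%, and the difference at equal −log10 p and width was 1.38 points (−0.0940 to 2.86). Both of these intervals include 0. At equal −log10 p alone the difference was 0.794 points (−0.278 to 1.87) for AP-1. For CTCF it was 2.18 points (0.757 to 3.61), an interval that does not include 0.

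Counted by gene, 1638 of the 13491 protein-coding genes with a control TSS peak (12.1%) had at least 1 lost peak. In 825 it was at the main start, and in 813 at alternative starts alone, of which 561 had an MGO peak at the main start. No MGO peak was found at any start of 946 genes (7.01%), and 738 of these had had a control peak at the main start. In 916 of the 946 every control TSS peak was lost. In the rest, a control TSS peak overlapped an MGO peak that lay more than 1000 bp from every start of the gene. Of the lncRNA genes with a control TSS peak, 818 of 4828 (16.9%) had a lost peak and 780 (16.2%) had no MGO peak at any start. Every control TSS peak was lost in 722 of the 780. Peaks of lncRNA genes that also lay at a protein-coding start are included in these counts. An MGO peak remained at some start of 717 of the 1638 protein-coding genes and of 95 of the 818 lncRNA genes. The share lost varied little by chromosome, from 12.1% on chromosome 4 to 17.6% on chromosome 5 among the autosomes, with 12.6% on X and 2 of 11 on Y.

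In several gene families of basic cell function the share with a lost peak was below the protein-coding background of 12.1%, though not in all beyond counting error. Of the ribosomal protein genes with a control TSS peak, 3 of 75 (4%, 1.37 to 11.1) had a lost one, RPS27, RPL23A and RPL11, with −log10 p values of 5.402, 4.04 and 3.43. RPL23A kept an MGO peak at its main start. Of the mitochondrial ribosomal protein genes 3 of 71 (4.23%, 1.45 to 11.7) had one, MRPL58, MRPS15 and MRPL10, and of the replication-dependent histone genes 2 of 49 (4.08%, 1.13 to 13.7), H4C12 and H4C2. No proteasome subunit gene of 42 did, for which the Wilson upper limit is 8.38%. Of the genes of mitochondrial complex I, 3 of 44 (6.82%, 2.35 to 18.2) had a lost peak, among them NDUFC2 (7.28). The intervals of the histone and complex I genes include the background. The zinc finger genes with ZNF symbols, mostly transcriptional repressors, had 27 of 383 (7.05%, 4.89 to 10.1), led by ZNF320 with a −log10 p of 8.37. The strongest control TSS peak of each gene had a median −log10 p of 6.97 for the histone, 7.83 for the ribosomal, 7.96 for the ZNF, 8.58 for the mitochondrial ribosomal and 8.69 for the proteasome genes, below the 9.12 of all protein-coding genes, and of 9.93 for the complex I genes, above it.

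Genes of nerve cell signalling, cell adhesion and matrix stood at the other end. Of the cadherin and protocadherin genes, which encode cell adhesion proteins, 12 of 37 (32.4%, 19.6 to 48.5) had a lost peak, such as PCDHA11 (8.09, chr5:140868855-140869593) and PCDH15 (5.79), both at the main start. Of the neurotransmitter receptor genes 16 of 55 (29.1%, 18.8 to 42.1) had one. They included GRM8, the glycine receptor gene GLRA1 (6.78), the serotonin receptor gene HTR5A (6.18) and the nicotinic receptor gene CHRNB4 (6.09), the last 3 at the main start. Genes of potassium, calcium and sodium channels had 22 of 85 (25.9%, 17.8 to 36.1), with SCN2A and KCNMB2 followed by the potassium channel genes KCNF1 (7.14, chr2:10911865-10912294) and KCNA4 (6.85). Of the collagen, laminin and integrin genes 16 of 57 (28.1%, 18.1 to 40.8) had a lost peak, and the strongest, ITGA2B (8.58), COL27A1 (5.81), COL6A5 (4.82) and COL4A2 (4.69), were all at alternative starts. The strongest control TSS peak of a gene had a median −log10 p of 6.38 for receptors, 7.04 for channels, 7.67 for cadherins and 7.92 for collagens, laminins and integrins, all below the 9.12 of all protein-coding genes. The part of peak strength in these shares was not tested.

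HOX genes, which encode the homeodomain factors that pattern the body axis, had a lost peak in 8 of 27 (29.6%, 15.9 to 48.5), beside 12.1% of all protein-coding genes. HOXA9 (6.27, chr7:27165559-27166173), HOXC6 (4.61) and HOXC8 (3.82) lost one at the main start, and HOXD3 (6.05), HOXB8 (4.38), HOXB3 (4.35), HOXA10 (3.83) and HOXC9 (3.75) at alternative starts. HOXA9, HOXC8 and HOXB8 had no MGO peak at any start. These 3 are 11.1% of the 27, beside 7.01% of all protein-coding genes, a small difference on so few genes. The median of the strongest control peak per HOX gene was 5.90. Other developmental transcription factor genes had a lost peak in 9 of 106 (8.49%, 4.53 to 15.4), including FOXP1 (6.84) and MEIS1 (6.11), both at alternative starts and both with an MGO peak at the main start.

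In the remaining protein-coding lists the interval of the share included the background of 12.1%. Solute carrier genes, which encode membrane transporters, had 28 of 239 (11.7%, 8.23 to 16.4), led by SLC2A11 (7.13). Histone-modifying enzymes had 9 of 77 (11.7%, 6.27 to 20.8). Kinesins and axonemal dyneins had 3 of 43 (6.98%, 2.40 to 18.6), a share close to the 6.82% of the complex I genes. Of the histone-modifying enzymes, KMT2C (7.23) and SETD5 (4.92) lost peaks at alternative starts and had MGO peaks at their main starts, as did the kinesin genes KIF5C, KIF3C and KIF2A. The demethylase gene KDM6B (5.14) lost one at an alternative start and had no MGO peak at any start. The deacylase gene SIRT4 (5.43) was among the 5 of the 9 enzymes that lost a peak at the main start. Of the enzymes that remove MGO or its adducts 1 of 11 did, the aldo-keto reductase gene AKR1C3, whose peak was weak (3.51). In glycolysis, the source of MGO, 2 of 18 genes did, GPI (3.70) and ALDOC (3.63). Among stress-response lists, 2 of 15 NRF2 targets had a lost peak, among them TXNRD1 (4.56) at an alternative start, and 0 of 6 HSF1 targets and 0 of 8 ATF4 targets did, with Wilson upper limits of 39.0% and 32.4%.

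Among long non-coding RNA genes the share differed between the lists. Intergenic genes with LINC symbols had a lost peak in 141 of 431 (32.7%, 28.5 to 37.3), including LINC01431 (9.20, chr20:23357878-23358403) and LINC01353 (8.02) at main starts. No MGO peak at any start was found for 134 of the 431 (31.1%), beside 16.2% of all lncRNA genes. Divergent and antisense lncRNA genes, named after a coding neighbour, had 121 of 1393 (8.69%, 7.32 to 10.3), against 16.9% of all lncRNA genes. TAF1A-AS1 (8.501) was one, and HSD11B1-AS1 had an alternative start under the G0S2 peak. The list also holds intronic transcripts with IT symbols, such as E2F3-IT1. Host genes of small RNAs had 16 of 67 (23.9%, 15.3 to 35.3), with MIR3663HG (8.14) at the main start and MIR99AHG (8.13), MIR9-1HG (7.26) and MIR100HG (7.22) at alternative starts. The interval of these host genes includes the 16.9% of all lncRNA genes. The median −log10 p of the strongest control peak per gene was 6.51 for LINC genes and 10.1 for divergent and antisense genes. The lists may share genes, and each gene entered with all its annotated starts. A peak within 1000 bp of a lncRNA start counted for that gene even when it also lay at a protein-coding start. Of all control TSS peaks, 1672 (11.2%) were at starts of lncRNA genes alone. The shares by list were not computed for these peaks.

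**Figure D5:**
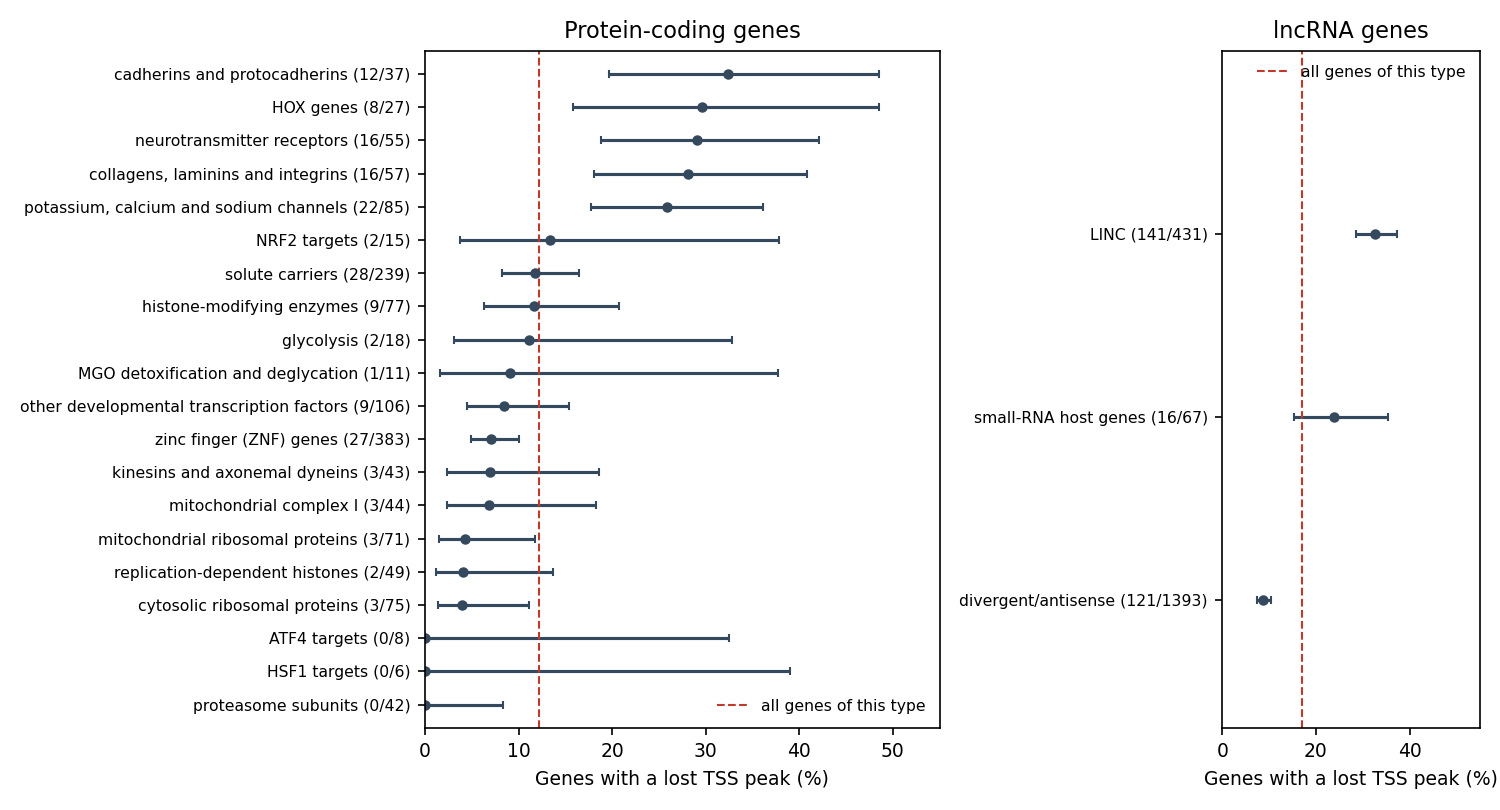
Percentage of the genes in each list with a control TSS peak that had at least 1 lost TSS peak, with 95% Wilson intervals and the counts in parentheses; the dashed lines mark all protein-coding genes (12.1%) and all lncRNA genes (16.9%). Cadherin, HOX, receptor, matrix and channel genes lie between 25.9% and 32.4%, and ribosomal, histone and proteasome genes at or below 4.23%.

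The opposite set was much smaller: 581 of the 13216 TSS peaks in the MGO list overlapped no control peak. A main start lay at 60.6% (56.6 to 64.5) of these, 44.4% met the island criteria and 24.3% had starts of lncRNA genes alone. Lost minus MGO-only peaks gave −4.41 points for a main start, with an interval of −8.80 to 0.101 that includes 0. The same difference was −12.8 points (−17.2 to −8.34) for the island criteria and 4.45 points (0.379 to 8.26) for starts of lncRNA genes alone. The MGO-only peaks were also narrow and weak, at a median width of 434 bp and a median −log10 p of 4.06 in the MGO library. At PARK7, the retained promoter printed above, both libraries had a peak, with a fold enrichment of 3.94 and a −log10 p of 9.85 in the control and 3.79 and 7.97 after MGO.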

How the data were processed

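ATAC-seq was performed on control and MGO-treated 293T cells, with 1 library analysed per condition. The authors aligned reads with BWA (0.7.15, submitters' processing notes) to GRCh38, used Picard (2.16.0, same notes) to remove reads that were mitochondrial or mapped to several places, subsampled reads to equal depth and called broad peaks with MACS2 outside blacklisted regions. Its version and settings are not given in the sources used here. For each peak the authors deposited a fold enrichment (a ratio), the −log10 of the p and q values and a score, which was not used. The analysis kept every deposited peak of chromosomes 1 to 22, X and Y, including those with q above the 0.01 of the methods. The names of the peaks carry the same number in both lists, and the paper's methods also name consensus peaks. Further libraries may therefore exist, which were not analysed here. The lists hold no counts, and the depth left after subsampling is not given in the sources used here, so no error from depth could be computed.

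Transcript starts were from GENCODE 44, main starts from its Ensembl canonical tag, and promoter windows from RefSeq (GRCh38.p14). Sequence was read from GRCh38. The windows were compared with GRCh38 for 2000 genes, with 0 differences. Shares carry 95% Wilson intervals, differences Newcombe intervals, and adjusted differences Mantel-Haenszel weights over 10 groups of −log10 p, or these with 5 of width. Intervals treat peaks as independent. Named peaks were the strongest 10 at protein-coding main starts, 5 at lncRNA main starts, 5 at alternative starts and 10 of genes without an MGO peak, the 5 widest, those at the limits, and up to 4 per gene list of highest −log10 p unless the list was given whole or others were named for their kind of start. The members, the 23 gene lists and the rules were chosen with earlier results of these data known. Some items that these rules name are not reported here. Python 3.11.15 with numpy 2.4.6, pandas 2.3.3, scipy 1.17.1 and matplotlib 3.10.9 was used. Overlaps were checked against bedtools 2.31.1, and the stratified differences were tested on simulated data.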

Additional observations from a re-analysis of the deposited data

How the results depend on the processing

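Of 78 recomputed values, 23 stayed within their interval or, for the count of genes, within 1.5 times, and 55 moved beyond. The main start and CpG island differences kept their sign under every setting. The other results are shares, counts and widths, which cannot change sign. Loss depended most on the strength of the peaks compared. The share of control TSS peaks lost was 16.5% with a −log10 q of at least 2 in both lists, 8.89% with it in the control list alone, 24.2% with it in the MGO list alone, 22.6% when MGO peaks had to cover 50% of a control peak, 13.5% and 18.4% with TSS windows of 500 and 2000 bp, 12.3% for protein-coding genes, 11.9% for transcripts with the basic tag, 1.2% (48 peaks) at a fold enrichment of at least 4, and 8.10% with equal numbers of peaks. In the same order, the main start difference was −21.7, −30.9, −27.1, −27.7, −33.1, −37.6, −43.0, −18.2, −25.7 and −29.9 points, and the CpG island difference −34.7, −48.9, −42.8, −45.5, −52.2, −60.4, −52.1, −49.1, −50.0 and −48.4 points. At equal −log10 p these differences were −25.9 and −45.1, and at equal −log10 p and width, an alternative chosen after seeing the data, −23.9 and −44.6. The main start difference was −30.5 with the most 5′ start of each gene as its main start, and the island difference −51.1 with stricter island criteria.

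The count of 946 protein-coding genes with no MGO peak at any start became 1386 with a −log10 q of at least 2 in both lists. It was 583 with this limit in the control list alone and 1979 with it in the MGO list alone. At a fold enrichment of at least 4 it was 25, and with equal numbers of peaks 536. The median width of lost peaks was 687 bp with a −log10 q of at least 2 in both lists, 590 bp in the control list, 627.5 bp in the MGO list, 675 bp with 50% cover, 568 bp with basic transcripts, 604.5 bp at a fold enrichment of at least 4 and 593 bp with equal numbers. Lost peaks with an MGO peak at the same start were 0.366%, 1.70% and 0.581% under the q limits in both, the control and the MGO list, 32.5% with 50% cover, 1.62% when an MGO peak within 200 bp counted as overlapping, 1.08% and 5.48% with windows of 500 and 2000 bp, and 0% at a fold enrichment of at least 4. No paired analysis was possible because each condition had 1 library, and for the same reason no replicate could be left out. The depth behind single peaks is unknown, so a peak lost for lack of reads cannot be told apart from a closed site.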
